A study of Mus musculus with 8 samples.

Results

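The genes described here are 41 mouse genes of the interferon response and of antigen presentation on major histocompatibility complex class I. They were given as a list of symbols and read through every probe set of the Affymetrix Mouse430A_2 array annotated to them. That gave 74 probe sets, 68 of them annotated to 1 gene and 6 to several, out of 22626 probe sets tested on the array. Of the 41 genes, 40 had a probe set of their own, and the brightest such probe set over all arrays stood for the gene, as it did for each of the 12393 genes in all. The list was drawn up with results of these arrays known. Gbp2, Gbp2b, Gbp3, Trim34a and Ubd head it outside the order of the pathway, and Gbp2b ranked 4 and Gbp2 ranked 6 among the 12393 genes by the size of their difference between Ezh2-/- and wild type. Which values chose these 5 genes is not recorded, so their values are given below as a description with no test. The other 35 genes with a probe set of their own were tested.

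Interferons are secreted proteins that bind receptors on the cell surface, where the receptor-bound kinases Jak1, Jak2 and Tyk2 phosphorylate STAT proteins. STAT complexes and the interferon regulatory factors then switch on antiviral effectors and the machinery that cuts proteins into peptides and shows them on class I molecules. Embryonic stem cells are known for a weak response to interferon and for low class I levels on their surface.

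RNA was measured in 4 groups of mouse embryonic stem cells with 2 arrays each: wild type CJ7 cells and cells labelled Ezh2-/-, Eed-/- or Jarid2-/-. CJ7 is an embryonic stem cell line commonly used to make targeted mutations. Ezh2 is the histone methyltransferase of Polycomb repressive complex 2, Eed a core subunit of that complex and Jarid2 an accessory subunit. The labels give cj7 as the strain of all 8 samples and no treatment, and all cells were kept in 15% fetal calf serum with 1000 U/ml leukemia inhibitory factor, which keeps stem cells undifferentiated. No clone is named, so genotype and line cannot be told apart, and whether replicate arrays stem from separate cultures is not stated. The p-values then measure the spread between these arrays, which may be technical.

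Values are deposited intensities on a linear scale, called signal below. Array medians lay between 323 and 351, and replicate arrays correlated at 0.994 to 0.998 on the log2 scale across probe sets. The 3 bacterial probe sets that serve as negative controls reached up to 147.91 on any array. Any level below 147.91 is called within the range of the negative controls, also where it is below the lowest of them. Where the dimmer of 2 groups had a mean below that value, its level is known only as a bound, and the log2 difference is not exact. Ezh2 signal was 4798 in wild type and 696 in Ezh2-/-, and Eed signal was 10270 in wild type and 3611 in Eed-/-. Ezh2 signal was also lower in the arrays labelled Jarid2-/-, at 3024 or 63.0% of wild type (log2 -0.66, adjusted p = 0.0015). Jarid2 signal was 7954 in wild type and 9465 in the arrays labelled Jarid2-/-. Whether the Jarid2 probe sets lie in the deleted part is not known here, so they do not check that label, and these samples are called the Jarid2-labelled arrays. All 12 embryonic stem cell markers were above the negative controls in every group.

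More of the 35 tested genes fell than rose against wild type in each mutant, as was also so over all genes. In Ezh2-/-, 18 fell and 3 rose, where 17.9% of all genes fell and 9.67% rose. In Eed-/-, 6 fell and 2 rose, where 11.0% of all genes fell and 7.85% rose. In the Jarid2-labelled arrays, 15 fell and 1 rose, where 14.2% of all genes fell and 5.97% rose. As shares, 51.4%, 17.1% and 42.9% of the tested members fell. The median log2 difference of the members was -0.31, -0.15 and -0.30 in the same order, beside -0.08, -0.06 and -0.08 over all genes. The 3 comparisons share the wild type arrays. The count of 8 calls in Eed-/- was 5 without Eed-/- replicate 1 and 3 without Eed-/- replicate 2. The count of 16 in the Jarid2-labelled arrays was 10 without either Ezh2-/- array or Jarid2-/- replicate 1. A change here means an adjusted p under 0.05 in limma's moderated test over all 22626 probe sets, and log2 differences are of signal plus 16.

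**Figure D1:**
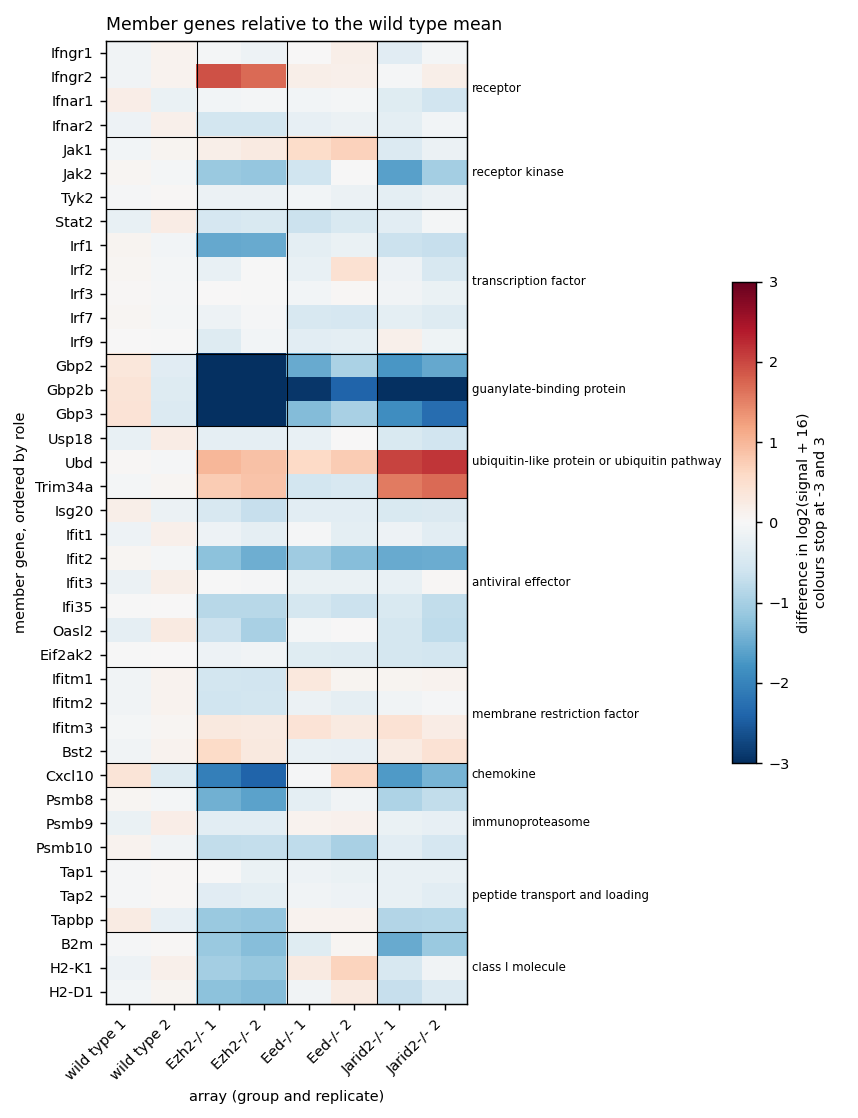
Each row is a member gene, grouped by role, and each column an array; colour gives the difference in log2(signal + 16) from the mean of the wild type arrays, with colours that stop at -3 and 3. The 3 guanylate-binding protein genes are lowest in Ezh2-/-, with Gbp2b as low in the Jarid2-labelled arrays, and Ifngr2, Ubd and Trim34a stand out as higher.

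The promoters of 39 of the 41 genes were found in the RefSeq set (build GRCm38.p6), which holds 250 bases before and 50 after each transcription start. They were searched on both strands for GAAA, any 2 bases and GAAA, the letters of an interferon-stimulated response element (ISRE), which binds STAT complexes and interferon regulatory factors. They were also searched for TTCNNNGAA, the letters of a gamma-activated site (GAS), which binds STAT dimers. The ISRE letters were in the window of 15 of the 39 genes (38.5%), where 3.99% of all 27025 genes held them. The GAS letters were in 11 of the 39 (28.2%), where 9.55% of all genes held them, and 22 of the 39 held at least one of these motifs. Some matches overlap one another, as in Bst2 and Ifitm3. Of the tested members, 10 held the ISRE letters, 11 the GAS letters and 16 neither, and the 4 with both are counted under each. In Ezh2-/-, 4 with the ISRE letters, 6 with the GAS letters and 7 with neither fell, where 17.9% of all genes fell. In Eed-/-, 2, 3 and 2 fell, where 11.0% of all genes did, and in the Jarid2-labelled arrays 3, 7 and 6 fell, where 14.2% did. In the same order of motifs, 2, 2 and 1 rose in Ezh2-/-, where 9.67% of all genes did. In Eed-/- 1, 1 and 1 rose, where 7.85% did, and in the Jarid2-labelled arrays 1, 1 and 0 rose, where 5.97% did. Of the 4 members with both motifs, 0 fell and 2 rose in Ezh2-/-. Calls were thus also made among members with neither motif in every mutant, though in Eed-/- the 2 of 16 that fell are near the share of all genes. Only exact letters were counted, so a window without a match may still hold a near match, as in H2-K1 and H2-D1. The members with neither motif are therefore not shown to lack such a site. A match is a description of the letters and not a measured site.

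The 250 bases before the start are shown 5′ to 3′ for 8 genes whose values are given below, with the motif letters in capitals. They are the 3 guanylate-binding protein genes, Irf1, Cxcl10, Psmb8 and B2m, which had lower signal in Ezh2-/- than in wild type, and Ifit1, whose window holds 2 ISRE matches and whose mean signal was within the range of the negative controls in every group. Each gene is shown with its first listed start; Gbp3 and Irf1 have a second one with no match. TTTCACTTTC and similar runs are the ISRE letters read on the other strand.
Gbp2, chr3:142620413-142620662, plus strand: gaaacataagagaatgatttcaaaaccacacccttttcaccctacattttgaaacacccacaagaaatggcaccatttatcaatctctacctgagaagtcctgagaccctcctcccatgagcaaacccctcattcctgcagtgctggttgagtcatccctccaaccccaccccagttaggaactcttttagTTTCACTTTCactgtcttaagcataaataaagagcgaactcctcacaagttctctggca
Gbp2b, chr3:142594597-142594846, plus strand: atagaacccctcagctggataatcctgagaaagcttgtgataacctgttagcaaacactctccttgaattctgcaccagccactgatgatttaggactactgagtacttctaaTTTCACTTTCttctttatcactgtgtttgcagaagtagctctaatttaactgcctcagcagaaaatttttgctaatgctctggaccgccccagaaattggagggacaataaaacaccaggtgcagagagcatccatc
Gbp3, chr3:142559794-142560043, plus strand: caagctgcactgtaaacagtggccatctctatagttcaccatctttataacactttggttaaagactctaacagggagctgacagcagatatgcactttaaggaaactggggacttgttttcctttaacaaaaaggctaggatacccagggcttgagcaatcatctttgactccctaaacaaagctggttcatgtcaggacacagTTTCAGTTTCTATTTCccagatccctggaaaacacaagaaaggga
Irf1, chr11:53769764-53770013, plus strand: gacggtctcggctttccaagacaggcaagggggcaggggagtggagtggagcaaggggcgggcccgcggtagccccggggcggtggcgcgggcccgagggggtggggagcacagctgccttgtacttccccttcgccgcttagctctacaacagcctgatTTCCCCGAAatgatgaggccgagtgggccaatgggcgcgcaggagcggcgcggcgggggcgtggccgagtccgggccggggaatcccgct
Cxcl10, chr5:92348890-92349139, minus strand: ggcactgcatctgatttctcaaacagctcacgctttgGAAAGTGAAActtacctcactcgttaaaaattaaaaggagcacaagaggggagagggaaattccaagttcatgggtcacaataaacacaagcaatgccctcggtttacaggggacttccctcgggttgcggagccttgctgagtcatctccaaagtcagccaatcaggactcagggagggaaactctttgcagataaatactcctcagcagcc
Psmb8, chr17:34197945-34198194, plus strand: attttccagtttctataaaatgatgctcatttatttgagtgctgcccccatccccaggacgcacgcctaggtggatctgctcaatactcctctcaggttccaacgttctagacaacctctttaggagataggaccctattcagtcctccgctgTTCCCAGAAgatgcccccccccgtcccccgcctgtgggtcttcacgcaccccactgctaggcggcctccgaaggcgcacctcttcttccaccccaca
B2m, chr2:122147437-122147686, plus strand: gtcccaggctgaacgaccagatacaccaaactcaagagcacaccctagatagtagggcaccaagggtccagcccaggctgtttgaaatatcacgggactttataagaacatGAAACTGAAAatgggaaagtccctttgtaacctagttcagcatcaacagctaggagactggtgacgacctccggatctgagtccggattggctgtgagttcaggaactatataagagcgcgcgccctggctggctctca
Ifit1, chr19:34640639-34640888, plus strand: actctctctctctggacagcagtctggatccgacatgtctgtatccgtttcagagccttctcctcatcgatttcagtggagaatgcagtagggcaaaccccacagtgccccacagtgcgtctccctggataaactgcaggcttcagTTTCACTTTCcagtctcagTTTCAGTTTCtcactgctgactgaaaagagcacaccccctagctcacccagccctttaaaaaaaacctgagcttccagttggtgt

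In these windows the ISRE match began 59 bases before the start in Gbp2, 137 in Gbp2b, 213 in Cxcl10 and 139 in B2m. Gbp3 held 2 overlapping matches that began 45 and 39 bases before the start. The GAS match began 90 bases before the start in Irf1 and 97 in Psmb8. The matches of Ifit1 began 104 and 85 bases before its start.

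Among the receptors, Ifngr2, the signalling chain of the interferon gamma receptor, rose in Ezh2-/-, and both chains of the type I interferon receptor passed the test once in the lower direction. Ifngr2 signal was 154 and 182 in wild type, 673 and 582 in Ezh2-/-, 190 and 188 in Eed-/-, and 164 and 191 in the Jarid2-labelled arrays. Both Ezh2-/- arrays lay above all others, and the log2 difference from wild type was 1.80 (SE 0.12, adjusted p = 2.1e-05). A second Ifngr2 probe set stayed between 95.7 and 133 in all arrays, within the range of the negative controls. Ifngr1, the ligand-binding chain, lay between 173 and 253 over all arrays and did not pass the test in any mutant. Ifnar2 signal was 516 and 637 in wild type and 384 and 385 in Ezh2-/-, which did not overlap, and fell by 0.56 on the log2 scale (adjusted p = 0.010). That call ended without wild type replicate 2 (-0.41) and without either Ezh2-/- array (-0.56). The second Ifnar2 probe set, at 194 and 200 in wild type and 171 and 188 in Ezh2-/-, did not pass the test (log2 -0.12, adjusted p = 0.37). Ifnar1 signal was 574 and 425 in wild type and 378 and 329 in the Jarid2-labelled arrays, a log2 difference of -0.47 (adjusted p = 0.046). The Ifnar1 call ended without wild type replicate 1 (-0.26), without Jarid2-/- replicate 1 (-0.56) or 2 (-0.37), and without any 1 of the Ezh2-/- and Eed-/- arrays (-0.47).

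Of the 3 receptor kinases, Jak2 fell in Ezh2-/- and in the Jarid2-labelled arrays, Jak1 rose in Eed-/-, and Tyk2 did not pass the test in any mutant. Jak2, the kinase bound to Ifngr2, had signals of 243 and 219 in wild type, 98.4 and 95.2 in Ezh2-/-, 148 and 230 in Eed-/-, and 64 and 106 in the Jarid2-labelled arrays. The Eed-/- arrays overlapped wild type, and the other mutant arrays lay below both. Those mutants' means were within the range of the negative controls, so Jak2 was at least 1.56-fold lower than wild type in each (adjusted p = 0.0061 in Ezh2-/- and 0.0040 in the Jarid2-labelled arrays). The second Jak2 probe set, whose group means were all within the range of the negative controls, passed in those mutants and also in Eed-/- (log2 -0.61, adjusted p = 0.039). Jak1, which serves type I and type II receptors, had signals of 643 and 717 in wild type, 775 and 817 in Ezh2-/-, 1002 and 1112 in Eed-/-, and 506 and 602 in the Jarid2-labelled arrays. Eed-/- was the highest group, by a log2 difference of 0.62 over wild type (SE 0.12, adjusted p = 0.0084), and all 3 Jak1 probe sets passed there. Without Eed-/- replicate 2 the difference was 0.55 and the call ended. Tyk2 lay between 339 and 430 over all arrays.

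Among the transcription factors, Irf1 showed the clearest change: it fell in Ezh2-/- and, by less, in the Jarid2-labelled arrays. Irf1, a factor induced by interferon gamma that acts on class I genes, had signals of 2413 and 2180 in wild type, 785 and 796 in Ezh2-/-, 1871 and 1984 in Eed-/-, and 1462 and 1403 in the Jarid2-labelled arrays. No group overlapped another, and the order was wild type, Eed-/-, the Jarid2-labelled arrays and Ezh2-/-. The log2 difference from wild type was -1.52 in Ezh2-/- (SE 0.09, adjusted p = 1.1e-05), -0.67 in the Jarid2-labelled arrays (adjusted p = 0.0015) and -0.25 in Eed-/- (adjusted p = 0.089). Between mutants, Irf1 was lower in Ezh2-/- than in the Jarid2-labelled arrays by a log2 difference of 0.84 (adjusted p = 0.00048) and lower than in Eed-/- by a wider margin (log2 -1.27, adjusted p = 4.5e-05).

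Stat2, which carries type I interferon signals to the nucleus, had signals of 186 and 256 in wild type, 150 and 155 in Ezh2-/-, 133 and 155 in Eed-/-, and 174 and 211 in the Jarid2-labelled arrays. Its falls in Ezh2-/- (log2 -0.48, adjusted p = 0.049) and also in Eed-/- (log2 -0.56, adjusted p = 0.037) passed narrowly. The Eed-/- mean was within the range of the negative controls, so Stat2 was at most 66.9% of wild type there. The second Stat2 probe set, whose group means were all within the range of the negative controls, passed in Eed-/- (log2 -0.49, adjusted p = 0.025) and not in Ezh2-/- (log2 -0.28, adjusted p = 0.12). The Ezh2-/- call ended without wild type replicate 2 (-0.26), without Ezh2-/- replicate 1 (-0.46) or 2 (-0.50) and without either Eed-/- array (-0.48). The Eed-/- call ended without wild type replicate 2 (-0.34), without Eed-/- replicate 1 (-0.45) or 2 (-0.66) and without either Ezh2-/- array (-0.56). Irf7, an amplifier of the type I response, had signals of 170 and 155 in wild type, 144 and 157 in Ezh2-/-, 112 and 110 in Eed-/-, and 129 and 121 in the Jarid2-labelled arrays. It was thus close to the negative controls in every group. The means in Eed-/- and in the Jarid2-labelled arrays were within their range, so Irf7 was at most 91% of wild type in each. Its fall in Eed-/- was -0.49 (adjusted p = 0.011), a call lost without wild type replicate 1 (-0.43) or Eed-/- replicate 2 (-0.48). Its fall in the Jarid2-labelled arrays was -0.34 (adjusted p = 0.043), and that call ended without any 1 of the 8 arrays (-0.28 to -0.40). Irf3, a factor activated by nucleic acid sensors, lay between 1014 and 1202, and Irf9, the DNA-binding partner of Stat2, between 200 and 296, with no call in any mutant. Of the 3 dimmer Irf3 probe sets, 1 passed in Eed-/- (log2 -0.30, adjusted p = 0.049) and another in the Jarid2-labelled arrays in the higher direction (log2 0.35, adjusted p = 0.030). Irf2, an antagonist of Irf1, lay between 11.1 and 35.4, within the range of the negative controls.

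**Figure D2:**
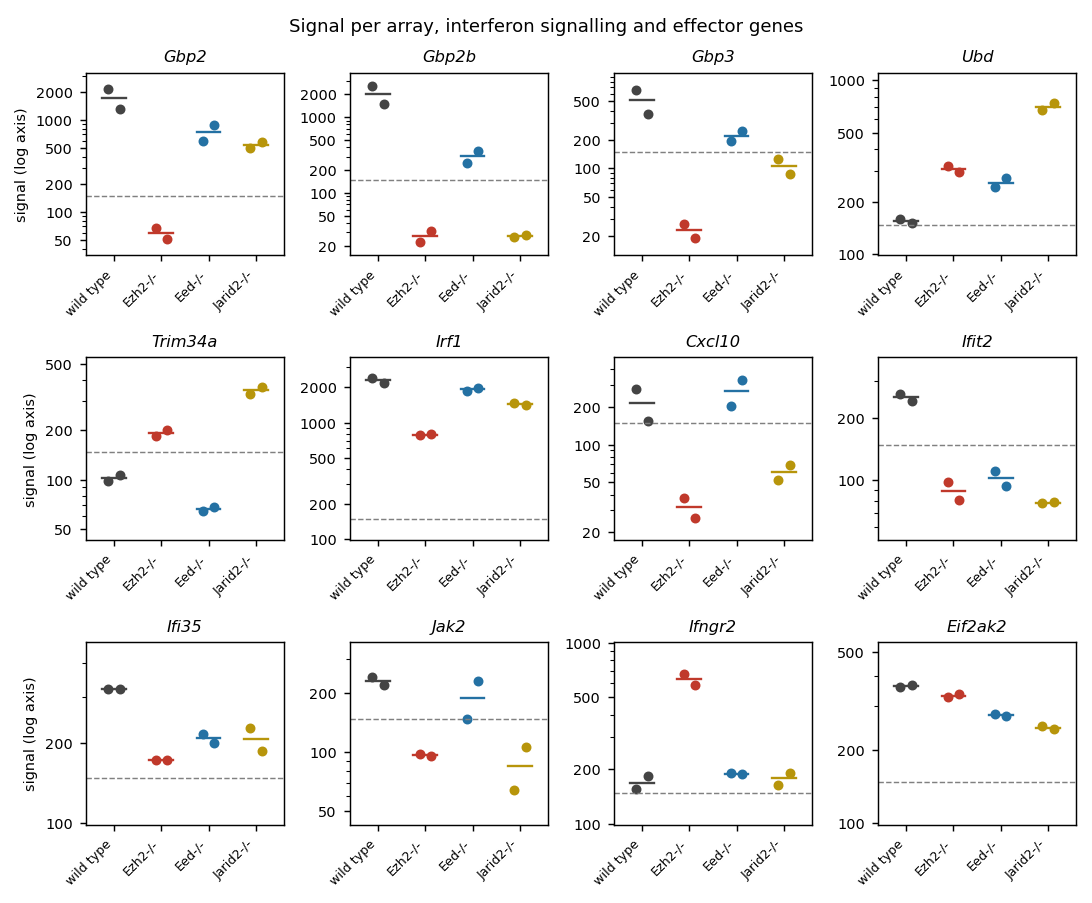
Signal of signalling and effector members in each array on a log axis, by genotype, with points for arrays and lines for group means; the level of the highest negative control is marked. Ifngr2 lies at 582 or more in Ezh2-/- and at 191 or less elsewhere, Irf1 separates all 4 groups, and Gbp2b lies at 30.9 or less in Ezh2-/- and in the Jarid2-labelled arrays.

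The guanylate-binding proteins are interferon-induced GTPases that attack intracellular pathogens, and the values of these 3 genes are a description. Gbp2 signal was 2179 and 1335 in wild type, 67.2 and 51.0 in Ezh2-/-, 591 and 876 in Eed-/-, and 499 and 574 in the Jarid2-labelled arrays. Gbp2b signal was 2573 and 1510 in wild type, 22.4 and 30.9 in Ezh2-/-, 247 and 359 in Eed-/-, and 26.3 and 27.4 in the Jarid2-labelled arrays. Gbp3 signal was 660 and 372 in wild type, 26.7 and 18.8 in Ezh2-/-, 193 and 247 in Eed-/-, and 124 and 88.4 in the Jarid2-labelled arrays. Every mutant array was below both wild type arrays for all 3 genes, and the wild type arrays themselves differed, with replicate 1 the higher. In Ezh2-/-, where all 3 were within the range of the negative controls, Gbp2 was at least 11.9-fold, Gbp2b at least 13.8-fold and Gbp3 at least 3.49-fold lower than in wild type. In Eed-/-, Gbp2 kept 41.8%, Gbp2b 14.8% and Gbp3 42.6% of the wild type mean. The Jarid2-labelled arrays were split: Gbp2 was at 30.5% of wild type, while Gbp2b was at least 13.8-fold and Gbp3 at least 3.49-fold lower. The second Gbp2 probe set was lower in all 3 mutants too.

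Gbp3, Gbp2b and Gbp2 lie next to each other on chromosome 3, with Gbp7 on one side and Kyat3 and Gtf2b on the other, and these neighbours were looked at after their values were seen. Gbp7, another guanylate-binding protein gene, had signals of 325 and 320 in wild type, 178 and 125 in Ezh2-/-, 194 and 159 in Eed-/-, and 283 and 158 in the Jarid2-labelled arrays. It was lower in Ezh2-/- (log2 -1.04, adjusted p = 0.012) and also passed in Eed-/- (log2 -0.82, adjusted p = 0.043). The first call ended without Ezh2-/- replicate 2 (-0.80) and the second without either wild type array (-0.81 and -0.83), either Ezh2-/- array (-0.82) or either Eed-/- array (-0.95 and -0.69). Gtf2b, a general transcription factor that is no interferon gene, fell in Ezh2-/- from 2665 and 2589 to 1292 and 1314, which is 49.6% of wild type (adjusted p = 6.4e-05). It rose in Eed-/- by a log2 difference of 0.30 (adjusted p = 0.032), and that call ended without any 1 of the wild type, Ezh2-/- or Eed-/- arrays (0.28 to 0.32). Kyat3, an aminotransferase gene, likewise fell in Ezh2-/- (log2 -0.61, adjusted p = 0.010) and rose in Eed-/- (log2 0.65, adjusted p = 0.012). The Kyat3 calls ended without wild type replicate 2 (-0.50) or either Ezh2-/- array (-0.59 and -0.64) in Ezh2-/-, and without Eed-/- replicate 2 (0.50) in Eed-/-. In Ezh2-/-, Gtf2b and Kyat3 were thus lower alongside the guanylate-binding protein genes, while in Eed-/- they were higher. The genes further out, Unc5c, Bmpr1b, Pdlim5, Lmo4 and Hs2st1, did not pass in Ezh2-/- (log2 -0.36 to 0.27). Of these, Hs2st1 rose in Eed-/- (log2 0.61, adjusted p = 0.029) and Lmo4 in the Jarid2-labelled arrays (log2 0.74, adjusted p = 0.012).

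Ubd and Trim34a had higher signal in some mutants, again given as a description. Ubd, a ubiquitin-like protein that marks proteins for degradation, had signals of 159 and 150 in wild type, 323 and 299 in Ezh2-/-, 243 and 273 in Eed-/-, and 673 and 735 in the Jarid2-labelled arrays. All mutant arrays were above wild type, and the Jarid2-labelled arrays were highest, at 456% of the wild type mean. Trim34a, a member of the tripartite motif family, had signals of 97.9 and 106 in wild type, 183 and 199 in Ezh2-/-, 64.7 and 68.5 in Eed-/-, and 330 and 366 in the Jarid2-labelled arrays. Wild type and Eed-/- were within the range of the negative controls, so Trim34a was at least 1.29-fold higher in Ezh2-/- and at least 2.35-fold higher in the Jarid2-labelled arrays. Its other probe set of its own went the other way, from 89.6 and 95.4 in wild type to 61.3 and 57.7 in the Jarid2-labelled arrays, all within the range of the negative controls. A probe set shared with Trim34b was brighter in wild type, with means of 266 there, 249 in Ezh2-/-, 201 in Eed-/- and 241 in the Jarid2-labelled arrays. Another shared with Trim34b had means of 80.6, 75.5, 74.9 and 96.4 in that order, within the range of the negative controls. The rise in Ezh2-/- was thus seen only in the probe set that stands for Trim34a. Usp18, which removes Isg15 from proteins, lay between 24.8 and 54.7 and did not pass the test in any mutant. Isg15, a ubiquitin-like modifier, was read only by a probe set shared with Gm9706, whose mean signal was 262 in wild type, 129 in Ezh2-/-, 170 in Eed-/- and 151 in the Jarid2-labelled arrays. The share of each gene in that signal cannot be told apart.

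Of the 7 antiviral effectors, Ifit2 and Ifi35 fell in all 3 mutants. Ifit2, which binds foreign RNA, had signals of 260 and 241 in wild type, 98.0 and 80.8 in Ezh2-/-, 111 and 93.6 in Eed-/-, and 77.7 and 78.6 in the Jarid2-labelled arrays. All mutant arrays were within the range of the negative controls, so Ifit2 was at most 59.0% of wild type in each (adjusted p = 0.00011, 0.00051 and 0.00011). Ifi35 signal was 321 and 321 in wild type, 173 and 174 in Ezh2-/-, 217 and 200 in Eed-/-, and 229 and 187 in the Jarid2-labelled arrays. Its log2 difference was -0.83, -0.58 and -0.59 (adjusted p = 0.00090, 0.0084 and 0.0065), and the Eed-/- call ended without Eed-/- replicate 2 (-0.53). Eif2ak2, the kinase PKR that halts translation on double-stranded RNA, had signals of 361 and 366 in wild type, 327 and 336 in Ezh2-/-, 280 and 275 in Eed-/-, and 249 and 243 in the Jarid2-labelled arrays. It fell in the Jarid2-labelled arrays (log2 -0.54, adjusted p = 0.0036) and also in Eed-/- (log2 -0.37, adjusted p = 0.020). The Eed-/- call ended without wild type replicate 2 (-0.36) and without Eed-/- replicate 1 (-0.38) or 2 (-0.36). The second Eif2ak2 probe set passed in the Jarid2-labelled arrays (log2 -0.32, adjusted p = 0.048) and not in Eed-/- (log2 -0.25, adjusted p = 0.10). Isg20, an RNA exonuclease, and Oasl2, of the oligoadenylate synthetase-like family, passed the test in Ezh2-/- and in the Jarid2-labelled arrays. All their group means lay no higher than the negative controls, so no fold is given. The Isg20 call in Ezh2-/- was lost without wild type replicate 1 (-0.40) or Ezh2-/- replicate 2 (-0.47), and that of Oasl2 without wild type replicate 2 (-0.53) or Ezh2-/- replicate 2 (-0.65). In the Jarid2-labelled arrays, the Isg20 call ended without wild type replicate 1 (-0.27) or any mutant array (-0.44 to -0.45), and that of Oasl2 without wild type replicate 2 (-0.37) or any mutant array (-0.53 to -0.76). Ifit1 and Ifit3, of the same family as Ifit2, lay between 97.1 and 148 and did not pass the test in any mutant.

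The membrane proteins that block virus entry or release went in several directions. Ifitm1, of the interferon-induced transmembrane family, had signals of 13450 and 15822 in wild type, 9904 and 9779 in Ezh2-/-, 18224 and 15561 in Eed-/-, and 15354 and 15667 in the Jarid2-labelled arrays. Ifitm2, a close relative, had signals of 7391 and 8438 in wild type, 5236 and 5343 in Ezh2-/-, 6964 and 6588 in Eed-/-, and 7381 and 7714 in the Jarid2-labelled arrays. Both fell in Ezh2-/-, by 0.57 for Ifitm1 (adjusted p = 0.0016) and by 0.58 for Ifitm2 (adjusted p = 0.00059) on the log2 scale, and neither passed the test in the other mutants. Ifitm3, which acts on endosomes, had signals of 7005 and 7669 in wild type, 8992 and 8887 in Ezh2-/-, 9740 and 8827 in Eed-/-, and 9852 and 8518 in the Jarid2-labelled arrays. It rose in all 3, by 0.29, 0.34 and 0.32 on the log2 scale (adjusted p = 0.028, 0.020 and 0.022). Those calls ended without wild type replicate 1 (0.22, 0.27 and 0.26), without either Ezh2-/- array for Ezh2-/- (0.28 and 0.29), without Eed-/- replicate 1 for Eed-/- (0.27) and without Jarid2-/- replicate 1 for the Jarid2-labelled arrays (0.22). Bst2, the tetherin that holds budding virus, had signals of 865 and 995 in wild type, 1379 and 1138 in Ezh2-/-, 791 and 781 in Eed-/-, and 1109 and 1252 in the Jarid2-labelled arrays. It rose in Ezh2-/- (log2 0.43, adjusted p = 0.033), a call lost without wild type replicate 1 (0.33), Ezh2-/- replicate 1 (0.29) or either Eed-/- array (0.43).

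Cxcl10, a chemokine that draws T cells and is induced by interferon gamma, had signals of 277 and 155 in wild type, 37.8 and 26.1 in Ezh2-/-, 201 and 330 in Eed-/-, and 52.7 and 68.9 in the Jarid2-labelled arrays. Eed-/- overlapped wild type, and the other mutants lay below both, within the range of the negative controls. Cxcl10 was thus at most 68.5% of wild type in Ezh2-/- (adjusted p = 0.00068) and in the Jarid2-labelled arrays (adjusted p = 0.0057). The difference from Eed-/- also passed in Ezh2-/- (adjusted p = 0.00046) and in the Jarid2-labelled arrays (adjusted p = 0.0028).

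The immunoproteasome replaces 3 catalytic subunits of the proteasome and cuts peptides that suit class I molecules. Psmb10 fell in all 3 mutants, Psmb8 in Ezh2-/- and in the Jarid2-labelled arrays, and Psmb9 in none against wild type. Psmb8 signal was 386 and 353 in wild type, 126 and 111 in Ezh2-/-, 298 and 344 in Eed-/-, and 187 and 214 in the Jarid2-labelled arrays. It was at least 2.50-fold lower than wild type in Ezh2-/- (adjusted p = 5e-05) and at 54.3% of it in the Jarid2-labelled arrays (adjusted p = 0.0017). Psmb10 signal was 3308 and 2851 in wild type, 1838 and 1858 in Ezh2-/-, 1815 and 1552 in Eed-/-, and 2483 and 2176 in the Jarid2-labelled arrays. All Eed-/- and Ezh2-/- arrays lay below the others, with log2 differences of -0.87 (adjusted p = 0.0016) and -0.73 (adjusted p = 0.0020) from wild type. The fall in the Jarid2-labelled arrays was -0.40 (adjusted p = 0.037) and ended without wild type replicate 1 (-0.29), Jarid2-/- replicate 2 (-0.31) or either Ezh2-/- array (-0.40). Psmb9 signal was 224 and 296 in wild type, 205 and 205 in Ezh2-/-, 278 and 285 in Eed-/-, and 224 and 213 in the Jarid2-labelled arrays. Its only call was between Ezh2-/- and Eed-/- (log2 -0.43, adjusted p = 0.048), and leaving out any 1 of the arrays of Ezh2-/- (-0.43), of Eed-/- (-0.45 and -0.41) or with the Jarid2 label (-0.43) ended it. Of the 14 subunits of the constitutive proteasome core, 4 rose in Ezh2-/-, while in Eed-/- 3 rose and 2 fell, and in the Jarid2-labelled arrays 2 rose. As shares, 28.6%, 21.4% and 14.3% of these subunits rose, where 9.67%, 7.85% and 5.97% of all genes did. In the same order 0%, 14.3% and 0% fell, where 17.9%, 11.0% and 14.2% of all genes did.

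Peptides are carried into the endoplasmic reticulum by the transporter Tap1 and Tap2 and loaded with the help of tapasin, the product of Tapbp. Tapbp signal was 1547 and 1084 in wild type, 590 and 568 in Ezh2-/-, 1397 and 1403 in Eed-/-, and 694 and 711 in the Jarid2-labelled arrays. It was at 44.1% of wild type in Ezh2-/- (log2 -1.14, SE 0.15, adjusted p = 0.00082) and at 53.4% in the Jarid2-labelled arrays (log2 -0.87, adjusted p = 0.0044), while Eed-/- lay between the wild type arrays. The second Tapbp probe set was dimmer, at 276 and 251 in wild type, 135 and 136 in Ezh2-/-, 201 and 190 in Eed-/-, and 186 and 154 in the Jarid2-labelled arrays. It passed in the lower direction in all 3 mutants, Eed-/- included (log2 -0.40, adjusted p = 0.035), so the probe sets of Tapbp differ on Eed-/-. Tap1 lay between 504 and 608 over all arrays and did not pass the test in any mutant. Of its 3 other probe sets, all within the range of the negative controls, 2 passed in Ezh2-/- and 1 of them in Eed-/- and in the Jarid2-labelled arrays, each in the lower direction. Tap2 signal was 208 and 218 in wild type and 164 and 172 in Ezh2-/-, a log2 difference of -0.31 (adjusted p = 0.034). That call ended without wild type replicate 1 (-0.34) or 2 (-0.28) and without Ezh2-/- replicate 1 (-0.28) or 2 (-0.34).

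B2m is the light chain that every class I molecule needs, and H2-K1 and H2-D1 are the classical heavy chains. B2m signal was 2295 and 2450 in wild type, 1084 and 977 in Ezh2-/-, 1853 and 2473 in Eed-/-, and 815 and 1086 in the Jarid2-labelled arrays. It was at 43.4% of wild type in Ezh2-/- (log2 -1.19, SE 0.16, adjusted p = 0.0011) and at 40.1% in the Jarid2-labelled arrays (log2 -1.32, adjusted p = 0.00098), and both B2m probe sets passed there. H2-K1 signal was 1169 and 1452 in wild type, 638 and 588 in Ezh2-/-, 1574 and 2087 in Eed-/-, and 930 and 1204 in the Jarid2-labelled arrays. It fell in Ezh2-/- (log2 -1.07, adjusted p = 0.0024), overlapped wild type in the Jarid2-labelled arrays, and lay above wild type in Eed-/- without passing the test (log2 0.47, adjusted p = 0.089). Of the 4 probe sets of H2-K1 alone, 3 passed in Ezh2-/- and 1 in the Jarid2-labelled arrays (log2 -0.64, adjusted p = 0.014). H2-D1 signal was 760 and 846 in wild type, 332 and 314 in Ezh2-/-, 748 and 974 in Eed-/-, and 492 and 597 in the Jarid2-labelled arrays. It fell in Ezh2-/- (log2 -1.27, adjusted p = 0.00043) and in the Jarid2-labelled arrays (log2 -0.55, adjusted p = 0.029). The latter call ended without wild type replicate 2 (-0.48), Jarid2-/- replicate 1 (-0.42) or either Ezh2-/- array (-0.55), and with the mean over the H2-D1 probe sets (-0.28). Of the 9 probe sets of H2-D1 alone, 4 passed in Ezh2-/- and 3 in the Jarid2-labelled arrays. Class I heavy chain genes are nearly identical, and most of their probe sets can bind transcripts of several, so the split between H2-K1 and H2-D1 is uncertain.

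**Figure D3:**
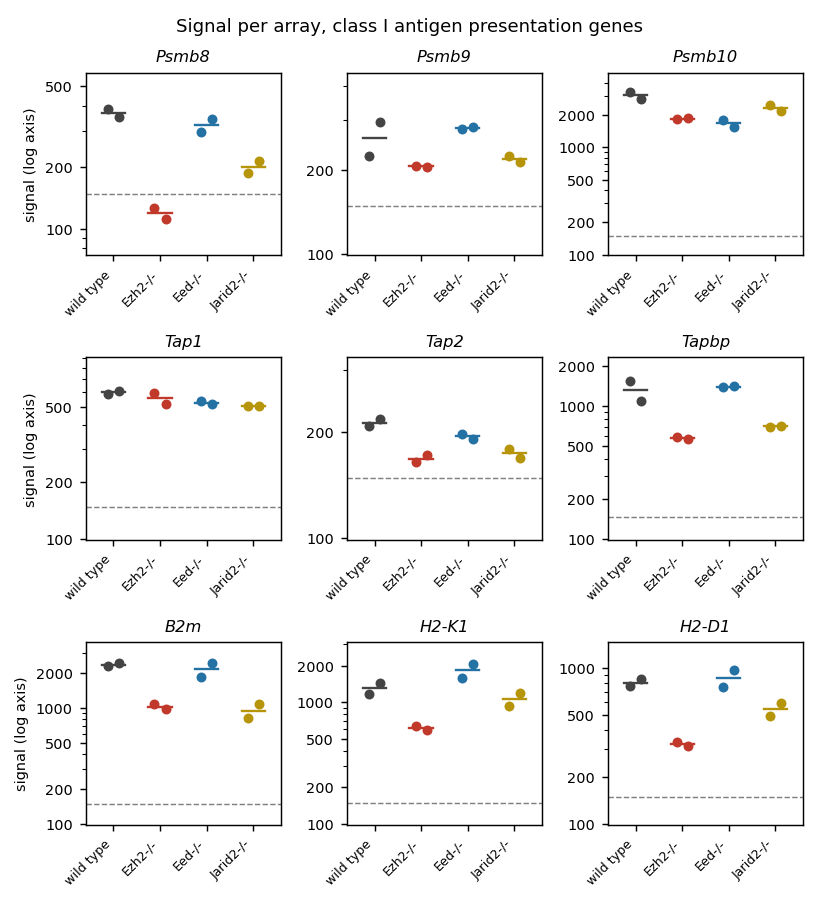
Signal of the class I presentation members in each array on a log axis, by genotype, with points for arrays and lines for group means; the level of the highest negative control is marked. Psmb8, Tapbp, B2m, H2-K1 and H2-D1 are lowest in Ezh2-/- or in the Jarid2-labelled arrays, and Psmb10 is lowest in Eed-/- and Ezh2-/-.

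Set against each other, the mutants differed in these genes. Between Ezh2-/- and Eed-/-, 13 of the 35 tested members were lower and 3 higher in Ezh2-/-, where 12.2% of all genes were lower and 5.86% higher. Between the Jarid2-labelled arrays and Eed-/-, 9 were lower and 2 higher in the former, where 10.6% of all genes were lower and 5.05% higher. Between the Jarid2-labelled arrays and Ezh2-/-, 6 were higher and 3 lower in the former, where 8.37% of all genes were higher and 7.63% lower. Those higher were Irf1, Ifitm1, Ifitm2, Psmb8, H2-K1 and H2-D1, and those lower were Ifngr2, Jak1 and Eif2ak2. Ifngr2, Irf7 and Bst2 were the members higher in Ezh2-/- than in Eed-/-. Bst2 and Psmb10 were those higher in the Jarid2-labelled arrays than in Eed-/-. The first count of 16 calls was 10 without either Ezh2-/- array or Eed-/- replicate 2. The second count of 11 was 4 without Eed-/- replicate 2 and 7 without Jarid2-/- replicate 1. The third count of 9 was 5 without Ezh2-/- replicate 1 and 4 without replicate 2. By their brightest probe sets, Jak2, Irf1, Cxcl10, Psmb8, Tapbp, B2m and H2-D1 were lower in Ezh2-/- and in the Jarid2-labelled arrays both against wild type and against Eed-/-. These comparisons share arrays. In the Jarid2-labelled arrays against Eed-/-, neither the second Tapbp probe set (log2 -0.19, adjusted p = 0.31) nor the second Jak2 probe set (log2 -0.48, adjusted p = 0.10) passed, while both B2m probe sets and 3 of the 9 H2-D1 probe sets did. Against Eed-/-, the Jak2 call in Ezh2-/- ended without Ezh2-/- replicate 1 (-0.85) or 2 (-0.81) or Eed-/- replicate 2 (-0.54). In the Jarid2-labelled arrays, 4 of these calls against Eed-/- ended without Eed-/- replicate 2: those of Jak2 (-0.73), Irf1 (-0.38), Psmb8 (-0.54) and H2-D1 (-0.45). The Jak2 and H2-D1 calls also ended without Jarid2-/- replicate 1 (-0.72 and -0.50), and the Irf1 call without Jarid2-/- replicate 2 (-0.39). H2-K1 was lower than in Eed-/- in Ezh2-/- (log2 -1.54, adjusted p = 0.00048) and in the Jarid2-labelled arrays (log2 -0.77, adjusted p = 0.018). The latter call ended without Eed-/- replicate 2 (-0.57) or Jarid2-/- replicate 1 (-0.58). B2m differed from Eed-/- by -1.05 in Ezh2-/- (adjusted p = 0.0029) and by -1.17 in the Jarid2-labelled arrays (adjusted p = 0.0018). For Psmb8, Ezh2-/- was the lower of the 2 by a log2 difference of 0.69 (adjusted p = 0.0051), which ended without Ezh2-/- replicate 2 (0.61).

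Ifngr1, Tyk2, Irf2, Irf3, Irf9, Usp18, Ifit1, Ifit3, Psmb9 and Tap1 did not pass the test in any mutant against wild type by the brightest probe set.

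Genes of the same pathways outside the 41 were read from 6 lists, of which 105 genes were measured. Among them 23 fell and 8 rose in Ezh2-/-, 6 fell and 5 rose in Eed-/-, and 20 fell and 5 rose in the Jarid2-labelled arrays. As shares, 21.9%, 5.71% and 19.0% fell, where 17.9%, 11.0% and 14.2% of all genes did, and 7.62%, 4.76% and 4.76% rose, where 9.67%, 7.85% and 5.97% did. The share that fell was thus near that of all genes in Ezh2-/- and in the Jarid2-labelled arrays and below it in Eed-/-. Their median log2 difference was -0.10, -0.10 and -0.14. These counts of 31, 11 and 25 calls fell without 1 array to as low as 16 (Ezh2-/- replicate 2), 2 (Eed-/- replicate 1) and 14 (Jarid2-/- replicate 2). Of 11 further interferon-induced GTPases, 5 fell in Ezh2-/-, 2 in Eed-/- and 4 in the Jarid2-labelled arrays, or 45.5%, 18.2% and 36.4%, beside the same shares of all genes. Only 4 of the 11 were above the negative controls in wild type, 2 in Ezh2-/-, 3 in Eed-/- and 3 in the Jarid2-labelled arrays. Some of the log2 differences of these GTPases are therefore not exact. Gbp7, with a mean of 151, was 1 of the 2 above the negative controls in Ezh2-/-. At least 2 of Irgm1, Irgm2 and Igtp were thus not above them there, and the log2 differences of those genes in Ezh2-/- are not exact. Irgm1, of the immunity-related GTPases, changed by -2.13 in Ezh2-/- (adjusted p = 0.00034) and by -1.13 in the Jarid2-labelled arrays (adjusted p = 0.010). The latter call ended without Jarid2-/- replicate 2 (-0.90). Irgm2, of the same family, changed by -1.85 in Ezh2-/- (adjusted p = 6.9e-05). Irgm2 also passed in Eed-/- (log2 -0.78, adjusted p = 0.0098), which ended without Eed-/- replicate 1 (-0.73). Igtp changed by -1.06 in Ezh2-/- (adjusted p = 0.0011) and by -0.78 in the Jarid2-labelled arrays (adjusted p = 0.0067).

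Of 39 other interferon-stimulated genes, 10 fell and 4 rose in Ezh2-/-, 2 fell and 2 rose in Eed-/-, and 7 fell and 1 rose in the Jarid2-labelled arrays. The shares that fell were 25.6%, 5.13% and 17.9%, beside 17.9%, 11.0% and 14.2% of all genes, and those that rose were 10.3%, 5.13% and 2.56%, beside 9.67%, 7.85% and 5.97%. Helz2, a helicase, fell in Ezh2-/- (log2 -1.46, adjusted p = 0.00060), while Aim2, a DNA sensor, rose there (log2 0.62, adjusted p = 0.0029). Ifih1, the RNA sensor MDA5, fell in Ezh2-/- (log2 -0.92, adjusted p = 0.0012), in Eed-/- (log2 -0.70, adjusted p = 0.0078) and in the Jarid2-labelled arrays (log2 -0.99, adjusted p = 0.0012). The Eed-/- call for Ifih1 ended without Eed-/- replicate 1 (-0.62). Oas1a, of the oligoadenylate synthetases, fell in the Jarid2-labelled arrays (log2 -1.16, adjusted p = 0.00077), while Lgals9, a galectin, rose there (log2 1.02, adjusted p = 0.0014). Of 16 other class I genes, 4 fell and 1 rose in Ezh2-/-, 1 rose in Eed-/-, and 4 fell and 2 rose in the Jarid2-labelled arrays. These falls are 25% of the list in Ezh2-/- and in the Jarid2-labelled arrays, beside 17.9% and 14.2% of all genes. The rises are 6.25%, 6.25% and 12.5%, beside 9.67%, 7.85% and 5.97%. Erap1, which trims peptides for class I molecules, fell in Ezh2-/- (log2 -1.32, adjusted p = 0.0011). It also fell in the Jarid2-labelled arrays (log2 -0.83, adjusted p = 0.014), a call lost without Jarid2-/- replicate 2 (-0.74). Pdia3, a chaperone of peptide loading, rose in Ezh2-/- (log2 1.38, adjusted p = 0.00011), in Eed-/- (log2 0.61, adjusted p = 0.011, ended without Eed-/- replicate 2 at 0.55) and in the Jarid2-labelled arrays (log2 0.87, adjusted p = 0.0017). Of 17 other signalling genes, 2 rose in each mutant and 1 fell in Ezh2-/- and in the Jarid2-labelled arrays. The rises are 11.8% of the list in each mutant, beside 9.67%, 7.85% and 5.97% of all genes. The falls are 5.88% of the list in Ezh2-/- and in the Jarid2-labelled arrays, beside 17.9% and 14.2%. Of 10 nucleic acid sensors and adaptors, 1 fell and 1 rose in Ezh2-/-, 1 fell in Eed-/- and 3 fell in the Jarid2-labelled arrays. Thus 10%, 10% and 30% fell, beside 17.9%, 11.0% and 14.2% of all genes, and 10% rose in Ezh2-/-, beside 9.67%. Of 12 class II genes, 2 fell in Ezh2-/-, 1 in Eed-/- and 1 in the Jarid2-labelled arrays. These are 16.7%, 8.33% and 8.33%, beside the same 17.9%, 11.0% and 14.2%. In lists this small 1 gene moves a share widely.

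**Figure D4:**
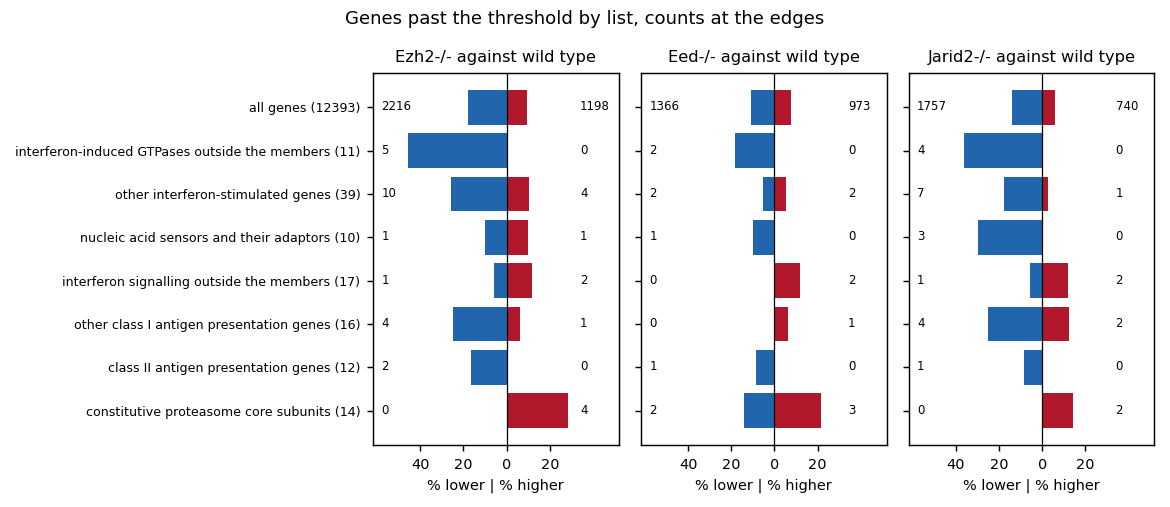
Share of genes past the threshold against wild type in 7 lists of genes outside the members and over all genes, in percent, with lower calls to the left and higher calls to the right, counts at the panel edges, the number of genes measured in brackets and 1 panel per mutant. The interferon-induced GTPases fell in 45.5%, 18.2% and 36.4%, beside 17.9%, 11.0% and 14.2% of all genes. Only 4 of these 11 GTPases were above the negative controls in wild type.

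Marker sums of other cell types differed between the groups. Over the 23 fibroblast and feeder cell markers measured, summed signal was 15967 and 13223 in wild type, 3973 and 3649 in Ezh2-/-, 8175 and 12791 in Eed-/-, and 4384 and 4583 in the Jarid2-labelled arrays. Of these markers, 12 fell in Ezh2-/-, 5 fell and 1 rose in Eed-/-, and 10 fell in the Jarid2-labelled arrays (52.2%, 21.7% and 43.5%, beside 17.9%, 11.0% and 14.2% of all genes), and 15, 9, 12 and 9 were above the negative controls in the 4 groups. Col1a1, the main collagen of fibroblasts, had mean signals of 490 in wild type, 24.5 in Ezh2-/-, 66.4 in Eed-/- and 23.6 in the Jarid2-labelled arrays. Its means in the mutants were thus all within the range of the negative controls, whereas Thy1, another fibroblast marker, had means of 314 to 413 in all groups. The 9 trophectoderm markers summed to 28469 and 20955 in wild type, 4925 and 3943 in Ezh2-/-, 12149 and 23516 in Eed-/-, and 6367 and 7977 in the Jarid2-labelled arrays. Of them, 4 fell in Ezh2-/-, 2 rose and 1 fell in Eed-/-, and 3 fell in the Jarid2-labelled arrays. As shares, 44.4%, 11.1% and 33.3% fell, beside 17.9%, 11.0% and 14.2% of all genes, and 22.2% rose in Eed-/-, beside 7.85%. In the same order, 5, 6 and 6 of the 9 did not pass, and the median log2 difference was -0.23, -0.24 and -0.19. The sums in Ezh2-/- and in the Jarid2-labelled arrays were thus lowered by more than the median marker.

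Blood cell and primitive endoderm marker sums were higher in mutants. The 11 blood cell markers measured summed to 2959 and 3078 in wild type, 5866 and 6304 in Ezh2-/-, 3239 and 3260 in Eed-/-, and 3668 and 3635 in the Jarid2-labelled arrays. Of them, 2 rose in Ezh2-/-, 1 rose and 1 fell in Eed-/-, and 2 rose and 1 fell in the Jarid2-labelled arrays. As shares, 18.2%, 9.09% and 18.2% rose, beside 9.67%, 7.85% and 5.97% of all genes. In Eed-/- and in the Jarid2-labelled arrays 9.09% fell, beside 11.0% and 14.2%. Most of the list did not follow the sum: log2 differences were negative in 9, 7 and 7 of the 11 markers, with medians of -0.09, -0.18 and -0.16. Laptm5, a lysosomal membrane protein of blood cells, went from a mean of 688 in wild type to 3944 in Ezh2-/-, while Ptprc, the CD45 antigen that defines blood cells, had means of 33.1 to 42.7, within the range of the negative controls in every group. The 10 primitive endoderm markers summed to 6025 and 5693 in wild type, 8109 and 8391 in Ezh2-/-, 9045 and 10056 in Eed-/-, and 6545 and 7172 in the Jarid2-labelled arrays. Of them, 7 rose in Eed-/-, and 2 rose and 3 fell in Ezh2-/-, while 3 rose and 3 fell in the Jarid2-labelled arrays. The rises are 70% of the list in Eed-/-, 20% in Ezh2-/- and 30% in the Jarid2-labelled arrays, beside 7.85%, 9.67% and 5.97% of all genes. The falls are 30% in Ezh2-/- and in the Jarid2-labelled arrays, beside 17.9% and 14.2%. Gata6 and Gata4, transcription factors of that lineage, did not pass the test in any mutant.

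The summed signal of the 3 guanylate-binding protein genes was 5411 and 3217 in wild type, 116 and 101 in Ezh2-/-, 1031 and 1482 in Eed-/-, and 649 and 690 in the Jarid2-labelled arrays. In wild type, replicate 1 had the higher sum of these genes and of the fibroblast and trophectoderm lists, and in Eed-/- replicate 2 did. The 9 class I presentation members summed to 10480 and 10158 in wild type, 5568 and 5311 in Ezh2-/-, 8695 and 9824 in Eed-/-, and 6509 and 6875 in the Jarid2-labelled arrays. The stem cell markers summed to between 120568 and 142651 in all arrays. Of these 12 markers, 6 rose and 1 fell in Ezh2-/-, 2 rose in Eed-/-, and 3 rose and 1 fell in the Jarid2-labelled arrays, with median log2 differences of 0.25, 0.10 and 0.13. As shares, 50%, 16.7% and 25% rose, beside 9.67%, 7.85% and 5.97% of all genes. In Ezh2-/- and in the Jarid2-labelled arrays 8.33% fell, beside 17.9% and 14.2%. The marker that fell in both was Zfp42, at 18004 and 18757 in wild type, 3714 and 3989 in Ezh2-/-, 17260 and 18660 in Eed-/-, and 3726 and 3283 in the Jarid2-labelled arrays. The part of any other cell type, or of the state of the stem cells, in the interferon and class I values was not tested, and in bulk RNA fewer cells of a type and less RNA per cell cannot be told apart.

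**Figure D5:**
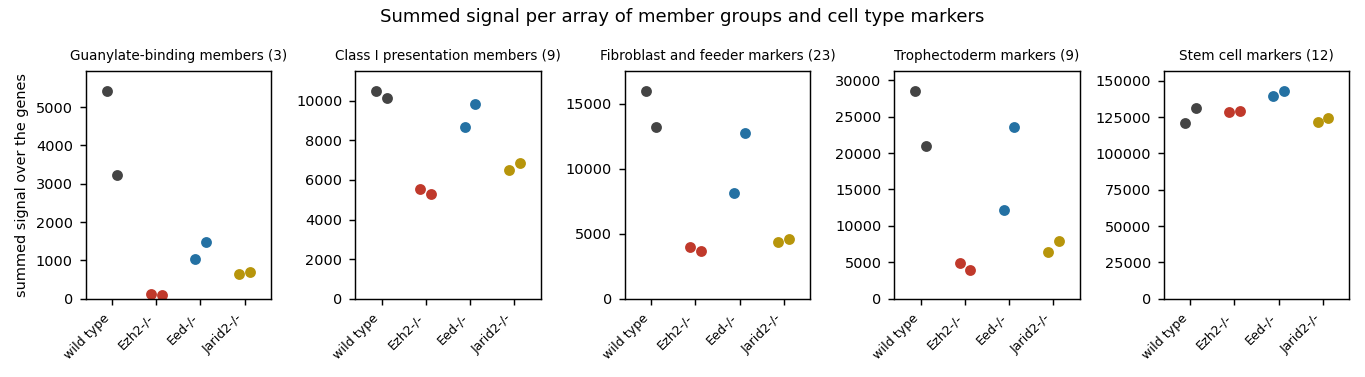
Summed signal per array, by genotype, of the guanylate-binding members, the class I presentation members and the fibroblast, trophectoderm and stem cell marker lists. The first 4 sums are lower in every array of Ezh2-/- and in both Jarid2-labelled arrays than in either wild type array, and the stem cell sum stays between 120568 and 142651.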

How the data were processed

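RNA was measured on 8 Mouse430A_2 arrays, 2 per group. The deposited values are linear intensities of probe sets; how they were normalized is not stated in the sources used. A second table's header names dChip model-based values, but its 12 columns match no label and were not used. Values under 1 were set to 1, 16 was added and log2 taken, without further normalization or filter; 64 control probe sets were left out. Gene symbols came from the platform annotation: 20380 probe sets had 1 symbol, 691 several and 1555 none. limma 3.58.1 in R 4.3.3 (lmFit with a mean per group over all arrays, eBayes with an intensity trend, 4 residual and 5.02 prior degrees of freedom) gave 6 comparisons, with two-sided p-values adjusted by Benjamini and Hochberg over 22626 probe sets. Array number limits the precision.

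The 41 members and all gene lists were chosen with earlier results of these data known. Counts over a list are therefore a description and no evidence of its direction. Members past the threshold in at least 1 comparison, with arrays that did not overlap and a brighter mean above the negative controls, were described with every array. There were 24 such tested members; the 5 taken for their values were given without a test, the others by range. Of each pathway list, up to 4 genes with the smallest p per comparison could be named. Alternatives were quantile normalization, equal array medians, offsets of 1 and 64, a filter on dim probe sets, no intensity trend, the mean over probe sets, the replicate number as a block, and each array left out. Those for pathway genes outside the members were added after seeing the data.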

Additional observations from a re-analysis of the deposited data

How the results depend on the processing

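No called value of the members described in full changed sign against wild type under the alternatives run. Leaving out 1 array moved the member calls against wild type from 21 to between 15 and 21 in Ezh2-/-, from 8 to between 3 and 8 in Eed-/-, and from 16 to between 10 and 13 in the arrays labelled Jarid2-/-. Between mutants they moved from 16 to between 10 and 17 (Ezh2-/- against Eed-/-), from 11 to between 4 and 14 (Jarid2-/- against Eed-/-) and from 9 to between 4 and 11 (Jarid2-/- against Ezh2-/-). The pathway genes outside the members moved from 31 to between 16 and 32, from 11 to between 2 and 13, from 25 to between 14 and 25, from 25 to between 13 and 25, from 19 to between 7 and 22 and from 13 to between 6 and 17 in the same order. Testing only probe sets above the negative controls left 6 of the 11 pathway calls in Eed-/-, with 71 in place of 105 genes tested. Of the member calls, 14 of 21, 2 of 8, 9 of 16, 9 of 16, 4 of 11 and 4 of 9 held under every alternative. Quantile normalization ended the calls of Stat2 and Tap2 in Ezh2-/-, of Stat2 in Eed-/-, and of Ifnar1, Irf7, Isg20, Oasl2 and Psmb10 in Jarid2-/- against wild type; equal array medians ended the same calls except that of Stat2 in Eed-/-. Without the intensity trend, the calls of Ifitm3 in every mutant and of Stat2, Ifnar1, Isg20 (Jarid2-/-), Oasl2 (Jarid2-/-) and Psmb10 (Jarid2-/-) ended.

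The replicate numbers are not said to pair the samples. Deviations of same-numbered arrays correlated at 0.411 between wild type and Jarid2-/-, 0.244 between Eed-/- and Jarid2-/- and 0.008 to 0.05 elsewhere. With the number as a block, member calls were 21, 10, 18, 17, 12 and 11. With 2 arrays per group, a difference that does not pass is not shown to be absent. Levels below 147.91 are bounds, and the table's unstated normalization limits every comparison of levels.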
